A study of Mus musculus with 2 samples.

Results

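Respiratory complex I genes were examined in mouse primary hepatocytes, the parenchymal cells of the liver kept in culture. The genes were all those that the array design names with the prefix Nduf. This gave 42 genes with 50 probes, of 15419 genes with a value in the whole dataset. By their known roles 36 encode subunits of complex I, 4 encode assembly factors named Ndufaf, and 2 (Ndufa4 and Ndufa4l2) carry the name without being counted as complex I subunits. The value of each gene was taken from its brightest probe, and that choice of probe used no measured difference between the arrays. The set of genes was chosen with earlier results of these data known.

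One group was hepatocytes transfected with siRNA against G0s2, which encodes an inhibitor of the triglyceride lipase made from Pnpla2, and the other was hepatocytes transfected with a control siRNA. Each group was 1 array of total RNA, made 24 hours after 50 pmol of siRNA was delivered by lipid transfection into cells in medium with serum. Both arrays lay on the same slide. Strain, sex and age of the mice, the siRNA target site, and whether wells or animals were pooled are not given in the sources used here.

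Complex I takes electrons from NADH at the tip of an arm that projects into the mitochondrial matrix, passes them along iron-sulfur clusters to ubiquinone, and pumps protons through an arm lying in the inner membrane. Its N module oxidises NADH, its Q module reduces ubiquinone, and the membrane arm has a proximal and a distal part. Assembly factors help to build the complex but leave it before it is finished. Most subunits are encoded in the nucleus, and hepatocytes, which oxidise fatty acids heavily, depend on the complex to reoxidise NADH.

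The probes are the reagents on which every value rests, and 5 genes are shown because they are the exception in sign or let probes at different places in 1 transcript be compared. Each line gives the first 30 of the 60 bases, 5′ to 3′, as the scanner tables hold them, with the position of the probe in its transcript and its place on mm9. Capitals mark the bases that lie inside the other Ndufb4 probe, and the whole probes overlap by 37 bases.
Ndufab1, position 631, chr7:129231667-129231726, minus strand: tgtaaatggctactttaaatcccagggtag
Ndufb5, position 614, chr3:32650097-32650156, plus strand: gtgtgtccctctagtgggaagaaatgaata
Ndufb5, position 753, chr3:32650236-32650295, plus strand: cagggtagtaatgaaacctggaggtctggg
Ndufb11, position 1, chrX:20194630-20194689, minus strand: ttccctacagggccatctagatgtcaccgc
Ndufb11, position 792, chrX:20192453-20192512, minus strand: tcatccgctgcttgttatttacctggttcc
Ndufb4, position 371, chr16:37647711-37647770, minus strand: ggacagaaaatttaacatctcctACTAAGT
Ndufb4, position 394, chr16:37647688-37647747, minus strand: ACTAAGTTCGGCAAGGATGACTATTCTTGC
Ndufaf4, position 677, chr4:24829194-24829253, plus strand: atacaagttcctgtgagttgagggccataa
Ndufaf4, position 1767, chr4:24830284-24830343, plus strand: catacttgcctcgagattccacgggaaaag
Whether these bases are coding or untranslated was not analysed here.

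All 50 probes were well above background on both arrays, so no member is missing and none entered as a bound. Signals of the probes used ran from 507 to 82270.2 on the G0s2 siRNA array and from 291 to 60827 on the control array, and no spot was saturated. A level is the log2 signal minus the array's 75th percentile, which was a signal of 728 on the G0s2 siRNA array and 418 on the control array. Differences are G0s2 siRNA minus control siRNA on that log2 scale. With 1 array per group there is no replicate check and no p-value, and each difference compares these 2 arrays. The error given (±) is the scanner software's own. It is set almost wholly by a fixed proportional term of 10% per array, which makes it 0.20 for nearly every member, and it leaves out variation between cultures, extracts and labellings. G0s2 itself had a level of -2.83 on the G0s2 siRNA array and -0.13 on the control array, a difference of -2.70 ± 0.21. All 8 hepatocyte markers examined, among them Alb, Ttr and Hnf4a, were measured, with levels of 3.08 to 8.79 on the G0s2 siRNA array and 0.12 to 8.70 on the control array.

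Complex I subunit genes were slightly lower, almost without exception, on the G0s2 siRNA array. Of 36 subunits, 34 had a difference below 0, and 29 of these lay at -0.20 or lower. The median was -0.30, a ratio of 0.811, with a range of -0.61 to 0.70. Across all 15419 genes the median was -0.027, and 52.1% had a difference below 0. No Nduf gene was 2-fold higher or lower, where 4.82% of all genes were 2-fold higher and 5.46% were 2-fold lower. At 1.5-fold, 2 members were lower and 1 was higher, against 14.6% and 12.5% of all genes in those directions. By more than 2 scanner errors, 11 of 42 members were lower and 1 was higher, against 19.7% and 16.2% of all genes. Most subunits thus stood slightly below 0, and few stood far from it. In bulk RNA, fewer hepatocytes and less RNA per hepatocyte cannot be told apart. Of the 8 hepatocyte markers, 7 were higher on the G0s2 siRNA array on the same scale, and Ttr differed by -0.16. The 7 ran from Serpina1a, by 0.085, to Cps1, by 2.96, and included Alb by 0.30 and Hnf4a by 1.04. The median difference of the 8 was 0.30. The part of hepatocyte number or state in the subunit differences was not tested.

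**Figure D1:**
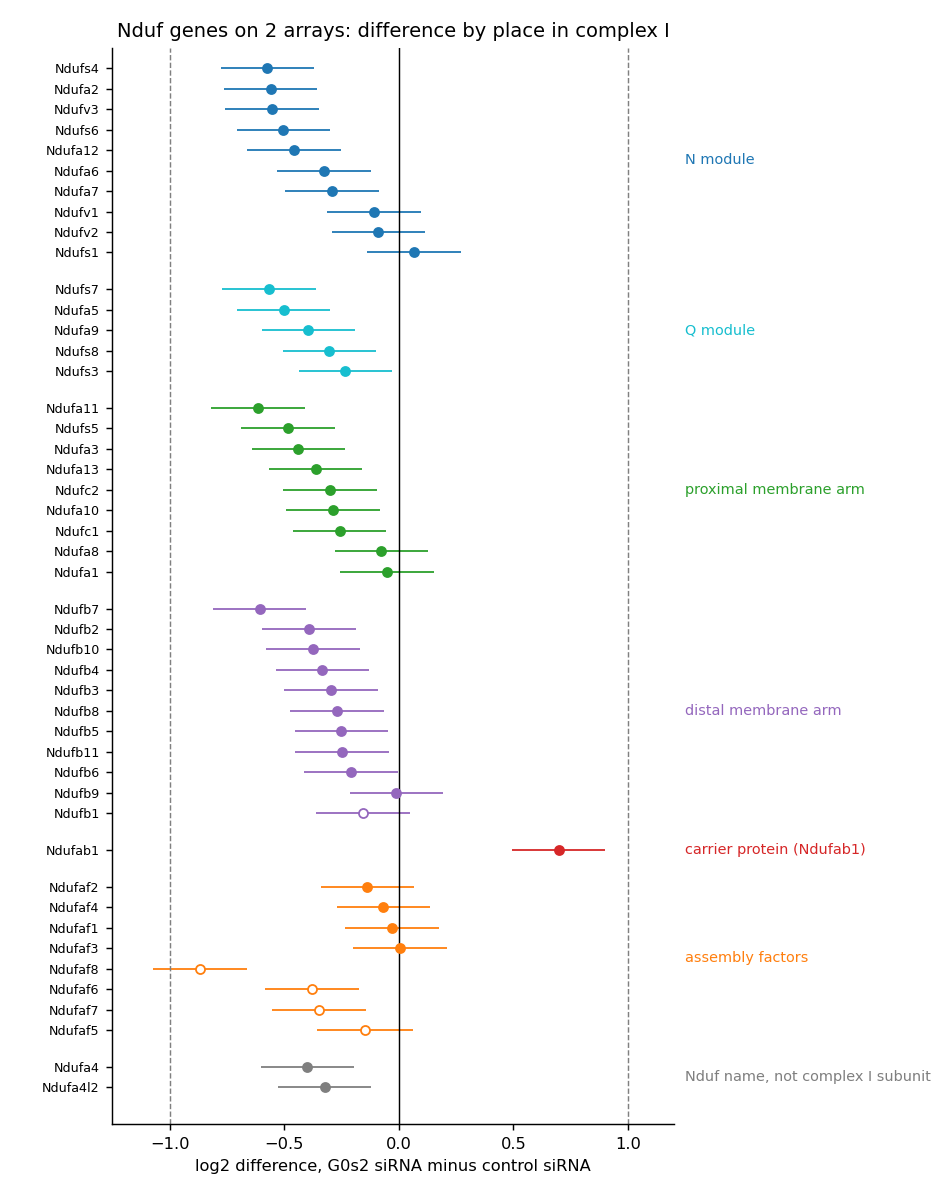
Log2 difference of each Nduf gene, G0s2 siRNA minus control siRNA (horizontal axis), grouped by place in complex I, with the scanner error as bars and dashed lines at 2-fold. Filled points are genes the array design names Nduf and open points are genes that carry an Nduf symbol only in the current gene table; all filled subunit points lie left of 0 except Ndufs1, next to 0, and Ndufab1, far to its right, and 1 core subunit is not drawn.

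The sign depends on the scale chosen for the arrays. Before scaling, all 42 members were brighter on the G0s2 siRNA array, and the raw signal ratio of subunits ran from 1.14 to 2.82, while the 75th percentile of the arrays differed by a factor of 1.74. Centring on spike-in controls instead shifted every member by 1.43 and the median of all genes by 1.40, to 1.37, and put the subunit median at 1.12 with 0 of 36 subunits below 0. On that scale 31 of 42 members were 2-fold higher, as were 12124 of all genes, or 78.6%, while 48 genes were 2-fold lower. Relative to the median of all genes the subunits stood at -0.24 on the spike-in scale and -0.27 on the scale used here. The words higher and lower below are relative to the 75th percentile of each array.

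**Figure D2:**
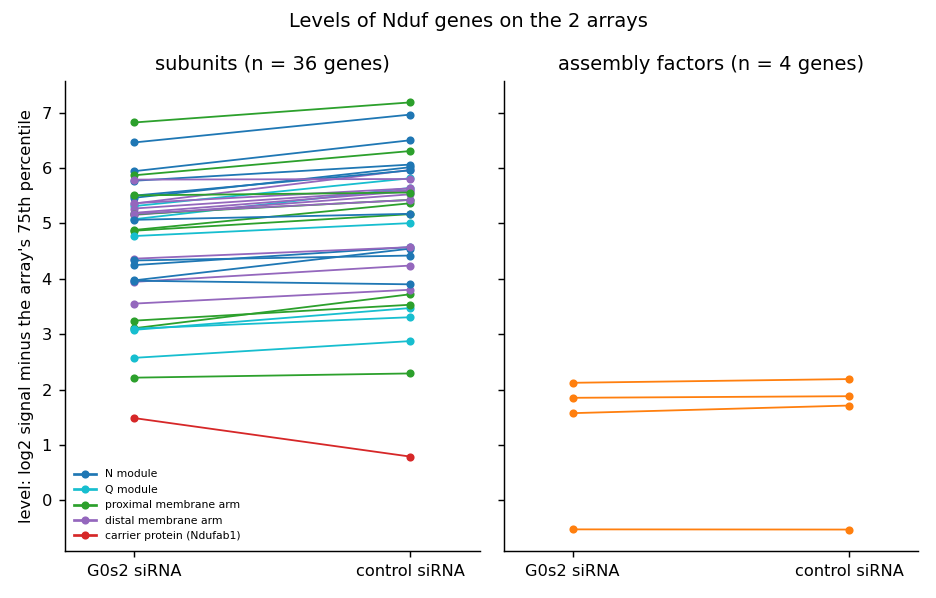
Level of each subunit gene (left panel) and assembly factor gene (right panel) on the G0s2 siRNA array and the control array, as log2 signal minus the array's 75th percentile, with a line per gene. Nearly all subunit lines end higher at control siRNA, Ndufab1 slopes the other way, and the 4 assembly factors are nearly flat; heights of different genes come from different probes and are not comparable.

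The nuclear-encoded core subunits carry the flavin, the iron-sulfur clusters and the quinone site, and 6 of the 7 had a difference below 0. Ndufv1, which binds NADH and the flavin, had a level of 5.06 with G0s2 siRNA and 5.17 with control siRNA, a difference of -0.11. Its partner Ndufv2, an iron-sulfur protein, had 4.33 with G0s2 siRNA and 4.42 with control siRNA, a difference of -0.089. The remaining core subunit of the N module, the iron-sulfur protein Ndufs1, had 3.97 with G0s2 siRNA and 3.90 with control siRNA, a difference of 0.065. These 3 lay within the scanner error of 0.

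Core subunits of the Q module were further from 0. Ndufs7, an iron-sulfur protein next to the quinone site, had 5.07 with G0s2 siRNA and 5.64 with control siRNA, a difference of -0.57 ± 0.20. For Ndufs8, another iron-sulfur protein, the levels were 2.57 with G0s2 siRNA and 2.88 with control siRNA, a difference of -0.30. Ndufs3 stood at 4.77 with G0s2 siRNA and 5.00 with control siRNA, a difference of -0.23. Of these 3, Ndufs7 alone differed by more than 2 scanner errors.

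Accessory subunits, which surround and stabilise the core, had a median of -0.33, with 28 of 29 below 0. In the N module, core and accessory together, 9 of 10 subunits were below 0 and the median was -0.39. Ndufs4, a late-added subunit whose loss destabilises the N module, had 3.97 with G0s2 siRNA and 4.54 with control siRNA, a difference of -0.57. Ndufa2, which has a thioredoxin-like fold, had 5.94 with G0s2 siRNA and 6.50 with control siRNA, a difference of -0.56. Ndufv3, a small partner of Ndufv1 and Ndufv2, had 5.46 with G0s2 siRNA and 6.01 with control siRNA, a difference of -0.55. Ndufs6, which binds zinc, differed by -0.50 and Ndufa12 by -0.46. The module therefore held 5 genes that were lower by more than 2 scanner errors, all of them accessory, beside its 3 core genes near 0. The probes of those core genes lay at positions 1509 (Ndufv1), 753 (Ndufv2) and 2411 (Ndufs1). Those of the 5 accessory genes lay at 497 or earlier, except Ndufv3 at 1517. Differences of all genes were lower at small positions, as described below. The part of probe position in this contrast was not tested.

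In the Q module all 6 subunits were below 0, with a median of -0.35. Its accessory members Ndufa5 and Ndufa9 differed by -0.50 and -0.39. The proximal membrane arm had 9 of 9 below 0 and a median of -0.30. Its lowest member, Ndufa11, had 3.11 on the G0s2 siRNA array and 3.72 on the control array, a difference of -0.61 ± 0.20 and 1.53-fold lower. Ndufb7 of the distal arm was as low to 2 decimals, and which gene is lowest changes with the processing: Ndufb7 was below Ndufa11 under quantile normalization (-0.54 against -0.51) and Ndufa2 under normexp (-0.62 against -0.51). Ndufs5, a cysteine-rich subunit facing the intermembrane space, differed by -0.48 and Ndufa3 by -0.44. At the other end of this arm were Ndufa8, another cysteine-rich subunit, at -0.076, and the X-linked Ndufa1, with 5.50 for G0s2 siRNA and 5.56 for control siRNA and a difference of -0.052.

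The distal membrane arm, made of the Ndufb subunits, had 10 of 10 below 0 and a median of -0.28. Ndufb7, a cysteine-rich subunit on the intermembrane face, had 5.36 with G0s2 siRNA and 5.96 with control siRNA, a difference of -0.61. It was the single member of this arm past 2 scanner errors. Ndufb9 stood nearest to 0, with 5.79 with G0s2 siRNA and 5.80 with control siRNA, a difference of -0.011. The other 8 lay between -0.39 for Ndufb2 and -0.21 for Ndufb6. The medians of the 4 modules thus spanned -0.39 to -0.28.

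Ndufab1 stood furthest above 0. It encodes the mitochondrial acyl carrier protein, which sits in both arms of the complex and also serves mitochondrial fatty acid synthesis. Its signal was 2039.7 on the G0s2 siRNA array and 724 on the control array, or levels of 1.49 and 0.79, a difference of 0.70 ± 0.20 and 1.62-fold higher. It was the highest of all 42 Nduf genes, and the gap to the next, Ndufs1, was larger than 0.58, which is 2 errors of a difference between members. That error leaves out variation between cultures, and the gene was singled out as the extreme of the 42. Of all genes, 12.5% were at least 1.5-fold higher. Ndufab1 also had the lowest level of the 36 subunits on both arrays. It rests on 1 probe with 1 spot per array. Over 10 other ways of processing, spike-in centring aside, its difference stayed between 0.69 and 0.83. With 1 probe above background on both arrays, its value could not change under the 2 background filters, averaged probes or the choice of probe.

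Assembly factors named in the array design stood near 0. Ndufaf1, which acts on intermediates of the membrane arm, had 1.85 with G0s2 siRNA and 1.88 with control siRNA, a difference of -0.029. Ndufaf2, a chaperone of a late intermediate, had 1.58 with G0s2 siRNA and 1.71 with control siRNA, a difference of -0.14. Ndufaf3, which works with Ndufaf4 on the Q module, had -0.52 with G0s2 siRNA and -0.53 with control siRNA, a difference of 0.0033. Ndufaf4 had 2.12 with G0s2 siRNA and 2.19 with control siRNA, a difference of -0.067. Their median was -0.048, so the subunit median lay 0.25 below it. By their brightest probes all 4 lay within the scanner error of 0. A second, dimmer probe of Ndufaf4 gave 0.47 ± 0.20, and with its probes averaged that gene stood at 0.20.

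That contrast rests on which genes carry the name. A further 4 assembly factors are called Ndufaf only in the current gene table, to which the array's accessions were matched. Ndufaf8, the partner of Ndufaf5, had a level of -1.08 with G0s2 siRNA and -0.21 with control siRNA, a difference of -0.87 ± 0.21, lower than any gene named Nduf on the array. Ndufaf6 differed by -0.38, Ndufaf7, a methyltransferase, by -0.35, and Ndufaf5, which hydroxylates Ndufs7, by -0.15. The median of these 4 was -0.36, and that of all 8 factors was -0.14, with 7 of 8 below 0. With all 8, and with Ndufb1 (-0.16) added to the subunits, the subunit median lay 0.16 below the assembly factor median. The 4 values near 0 thus do not describe assembly factors in general. Ndufa11b, listed as a transcribed pseudogene, differed by -0.46 and was not counted.

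Assembly factors without an Nduf name were mixed as well. Of 11 on the list 10 were measured, 6 were below 0, none was 2-fold different, and the median was -0.16. Timmdc1, a membrane-arm factor, was the lowest at -0.73. Tmem126b, of the same assembly machinery, differed by -0.66. Foxred1 was the highest at 0.43.

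The 2 remaining Nduf genes were lower by a similar amount to the subunits. Ndufa4, now placed in complex IV, had 4.85 with G0s2 siRNA and 5.25 with control siRNA, a difference of -0.40. Its paralog Ndufa4l2, known as a hypoxia-induced gene, had 1.79 with G0s2 siRNA and 2.11 with control siRNA, a difference of -0.32. Neither passed 2 scanner errors.

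Probes at different places of 1 gene could be compared for the 8 of 42 genes that had 2 probes. In 5 of the 8 the probes were within 0.25 of each other. In the other 3 they were further apart, though within 2 errors of their difference, about 0.58. In 6 of the 8 both probes were below 0. For Ndufv3 the probes at positions 1164 and 1517 gave -0.51 and -0.55, and for Ndufa5 those at 263 and 489 gave -0.47 and -0.50. Ndufb6 gave -0.21 and -0.33, Ndufb2 gave -0.39 and -0.35, and the overlapping Ndufb4 probes gave -0.33 and -0.23. The places of the Ndufb2 probes on mm9 also overlap, and these probes are listed under different transcripts, so their positions are not strictly comparable.

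Among the 3 wider pairs, Ndufb5 gave -0.25 at position 614 and -0.62 at position 753. Ndufb11 gave 0.13 at position 1 and -0.25 at position 792, and the first of these is a dim probe with a signal of 134 on the G0s2 siRNA array and 70.5 on the control array. Ndufaf4 gave -0.067 at position 677 and 0.47 at position 1767, a gap of 0.54 ± 0.29. In Ndufb11 and Ndufaf4 the probes thus lay on opposite sides of 0. The probe nearer the transcript end gave the higher value in 3 of 8 genes and the lower one in 5. The brighter Ndufb4 probe is also listed for Ndufb4b and the Ndufs5 probe for a pseudogene copy, so their values may hold signal of those copies and are uncertain. Without Ndufb4 and Ndufs5 the subunit median was -0.30.

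**Figure D3:**
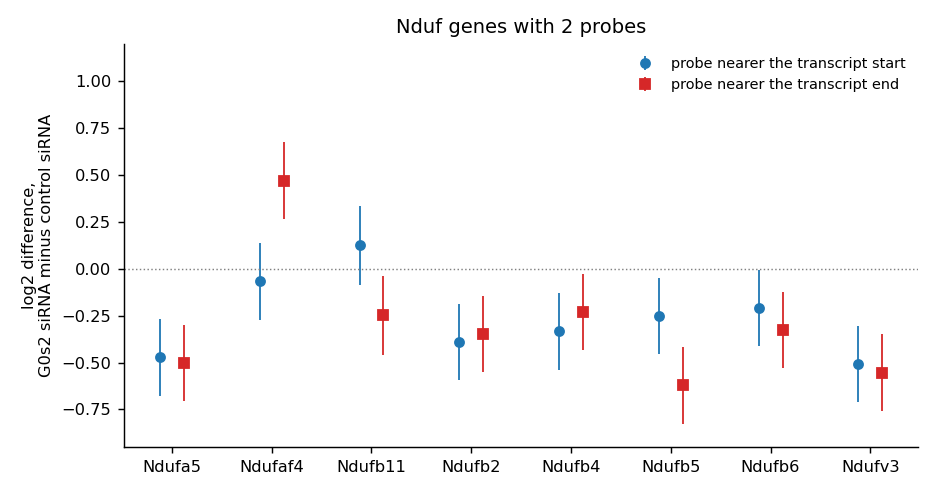
Log2 difference, G0s2 siRNA minus control siRNA, from the probe nearer the transcript start (circles) and nearer the transcript end (squares) of the 8 Nduf genes with 2 probes, with the scanner error as bars. Bars of each pair overlap except for Ndufaf4, where the later probe lies at 0.47 and the earlier one at -0.067.

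Probe position had to be set beside these values because differences across all genes were lower where the position was a small number. Position was counted from the transcript start, so a small number can also mark a short transcript. Transcript length and distance from the transcript end were not examined, so position and length cannot be told apart here. The 15411 genes with a position were divided by it into 10 bins of about equal size. In the lowest bin, from 1 to 503, the median difference was -0.13, and in the highest bin, from 4479 onward, it was 0.064. Of 36 subunit probes, 30 lay in the lowest 2 bins. In the lowest bin the 19 subunits had a median of -0.39, and 18 of them were below the median of all genes there. In the next bin, from 504 to 814, the 11 subunits had a median of -0.25 against -0.13 for all genes there, with 7 below it. The 6 subunits with later probes had a median of -0.30. They include Ndufv3 at position 1517 with -0.55 and Ndufa9 at 1147 with -0.39, but also Ndufs1 at 2411 with 0.065.

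Measured against the median of each gene's own position bin, the subunit median was -0.18, with 30 of 36 below it. After removal of a smooth trend with position it was -0.15. The subunit difference was thus smaller when set against other genes with probes at such positions, and still below 0 for most subunits. Among the 36 subunits Spearman's rho of difference with position was 0.33 and Pearson's r with log10 position 0.32. These describe genes that share both arrays, and no p is given. The 4 assembly factors had a median of 0.040 relative to their position bins and 0.052 after removal of the trend.

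**Figure D4:**
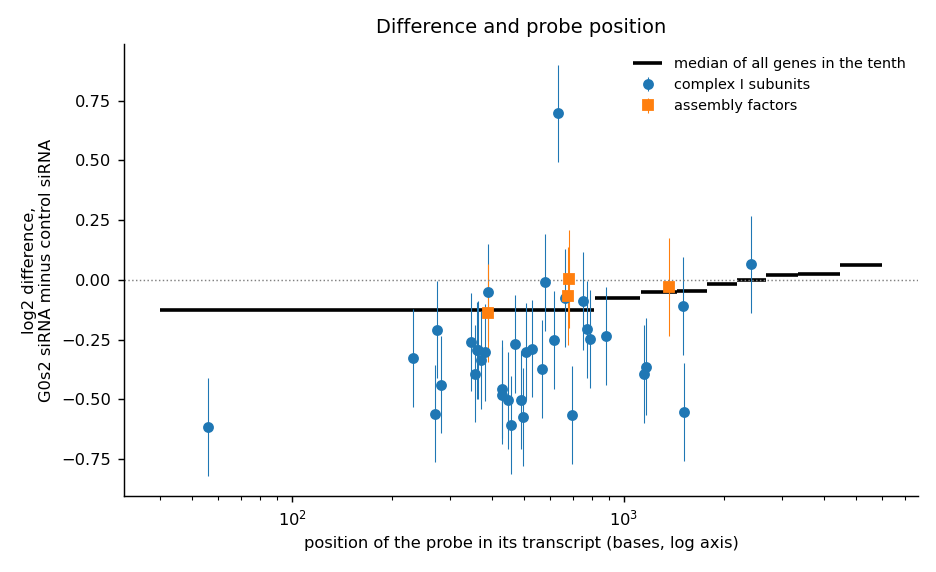
Log2 difference, G0s2 siRNA minus control siRNA, against the position of the probe in its transcript (log axis) for 36 subunits (circles) and 4 assembly factors (squares), with the scanner error as bars. Black lines are medians of all genes in each of 10 position bins, with the outermost lines shortened, and 30 of the 36 subunits lie below their line.

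Brightness was examined in the same way. Of the 36 subunits, 26 were in the brightest of 10 bins of all genes by mean level, where the median difference of all genes was -0.089 and 61.5% were below 0. The subunits there had a median of -0.35, and 24 of the 26 lay below the median of all genes in that bin. Relative to each gene's own brightness bin the subunit median was -0.21, with 31 of 36 below. With bins of position and brightness combined it was -0.17, with 28 of 36 below. Assembly factors lay in dimmer bins, with 0 of 4 in the brightest, and stood at 0.12 on the combined scale. Subunit and assembly factor genes therefore differ in brightness as well as in role. The subunit median lay 0.25 below the assembly factor median before these subtractions. The difference of the medians was -0.24 after subtraction of brightness bins and -0.29 after that of combined bins. These values do not compare genes of like brightness, because the factors lay in bins 5, 7 and 8. Bin 5 held 0 subunits, bin 7 held Ndufab1 (0.70), and bin 8 held Ndufa8 (-0.076) and Ndufs8 (-0.30). Whether the contrast holds at like brightness was not tested.

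**Figure D5:**
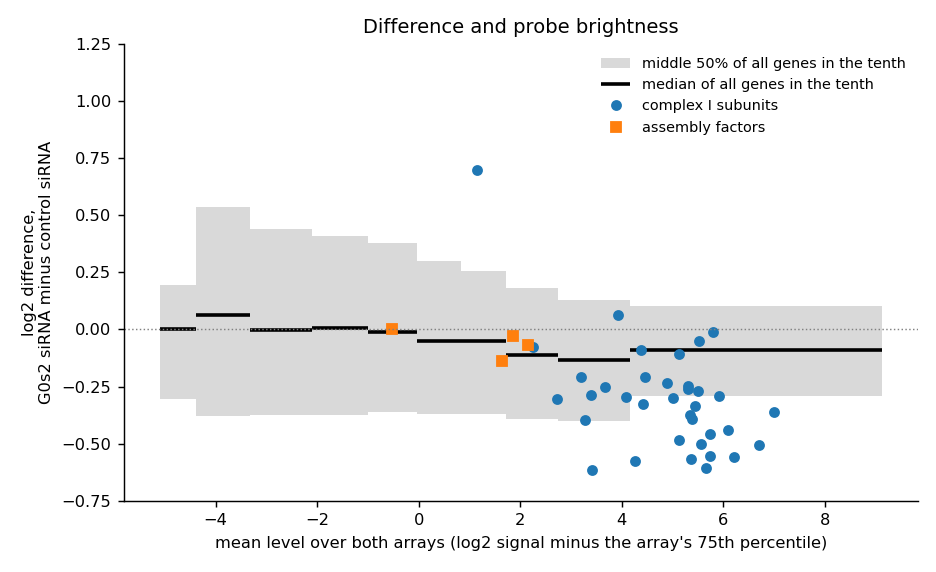
Log2 difference, G0s2 siRNA minus control siRNA, against the mean level of the probe over both arrays for 36 subunits (circles) and 4 assembly factors (squares). Black lines and grey bands are the median and middle 50% of all genes in each of 10 brightness bins; 24 of the 26 subunits in the brightest bin lie below its line at -0.089.

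Promoters were read because the subunit genes stood on the same side of 0. Nuclear respiratory factor 1, encoded by Nrf1, is known to bind promoters of respiratory chain genes. RefSeq sequences on GRCm38.p6 were found for 32 of the 36 subunit genes, with 34 promoters, and for the 4 assembly factors. The core of its motif, with any base allowed at 1 place, was searched on both strands in the 250 bases before each start. It was present in 7 of 34 subunit promoters, 20.6%, and in 5.18% of 21263 promoters of protein-coding genes. These 7 promoters belong to 6 genes, because overlapping promoters of Ndufa5 share the same match. A share per gene was not computed for all genes. The ETS letters CCGGAAG were in 8.82% of subunit promoters and 8.98% of all, and the YY1 core motif was in 0 of 34 and in 0.254% of all. The motifs were searched separately and their matches may overlap. Stretches from 4 genes are shown for their matched letters, in capitals. They are 3 subunits with differences of -0.61, -0.50 and -0.48, and 1 assembly factor near 0 by its brighter probe.
Ndufa11, chr17:56717677-56717736, plus strand: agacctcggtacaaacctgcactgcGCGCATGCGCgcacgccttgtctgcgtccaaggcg
Ndufs6, chr13:73328483-73328523, minus strand: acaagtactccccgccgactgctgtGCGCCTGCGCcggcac
Ndufs5, chr4:123718250-123718309, minus strand: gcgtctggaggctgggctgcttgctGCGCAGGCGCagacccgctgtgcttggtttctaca
Ndufaf4, chr4:24897945-24898004, plus strand: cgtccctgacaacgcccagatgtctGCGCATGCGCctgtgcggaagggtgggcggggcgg
The 6 subunit genes with a match had a median difference of -0.49, with a range of -0.61 for Ndufa11 to -0.076 for Ndufa8. Those not shown above are Ndufa5 (-0.50), Ndufb4 (-0.33) and Ndufa8. The values of Ndufb4 and Ndufs5 are uncertain because their probes are also listed for copies. The other 26 with a promoter had a median of -0.30 and a range of -0.61 to 0.70. These ranges overlap widely. A match in letters does not show binding.

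Genes of the other respiratory complexes gave a frame for these values. All 39 on the lists of complexes II to V were measured, with a median of -0.27 and 30 below 0, and 1 was 2-fold lower. Complex IV had a median of -0.40 and 10 of 11 below 0, from Cox8a at -0.60 to Cox5a at 0.016. Its list includes Ndufa4, which is also among the 42 Nduf genes and whose value of -0.40 is that median. Complex V had -0.27 and 13 of 15, from Atp5e at -0.62 to Atp5b at 0.11. Complex III had -0.092 and 6 of 9, from Cyc1, the cytochrome c1 gene and the single one past 2-fold, at -1.05 to Uqcrq at 0.25. Complex II had 0.20 and 1 of 4, from Sdhb at -0.36 to Sdha at 0.32. The median of complex I subunits thus lay between those of complexes III and IV, and medians below 0 were found for complexes III, IV and V as well. The 7 mitochondrially encoded complex I subunits were not analysed here.

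Markers of other liver cells were examined beside these results. Of 5 cholangiocyte markers 4 were measured, with a summed level of 2.01 on the G0s2 siRNA array and 4.34 on the control array, each on a linear scale where 1 is the 75th percentile. The 6 macrophage markers summed to 6.63 with G0s2 siRNA and 10.8 with control siRNA, and 4 of 5 endothelial markers to 6.73 with G0s2 siRNA and 9.28 with control siRNA. Members of both lists went both ways: 3 of the 6 macrophage markers were higher with G0s2 siRNA while Mpeg1, the brightest, differed by -1.18, and Pecam1 and Cdh5 differed by 0.77 and 1.01 while Kdr, the brightest endothelial marker, differed by -0.51. All 4 cholangiocyte markers were lower, with differences of -1.29 to -0.87. The hepatocyte markers summed to 1596 with G0s2 siRNA and 1379 with control siRNA. Of stellate cell markers 2 of 5 were measured, summing to 0.177 with G0s2 siRNA and 0.163 with control siRNA. The 1 of 3 lymphocyte markers measured had 0.933 with G0s2 siRNA and 1.87 with control siRNA, and 2 of 3 red blood cell markers summed to 0.344 with G0s2 siRNA and 0.565 with control siRNA. Epcam, Tek, Des, Lrat, Pdgfrb, Ptprc and Hbb-b1 gave no value. The part of these lists in the complex I differences was not tested.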

How the data were processed

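RNA of mouse primary hepatocytes was measured on 2 one-colour arrays, 1 per group, from 0.5 ug of RNA labelled with Cy3, per the labels' protocols. The deposited scanner tables hold spot intensity values made with Agilent Feature Extraction 10.7.1.1, per the file headers, and flags. Their column named Start was taken as the position of a probe in its transcript, which no header line defines. For the 8 genes with 2 probes the gap in that column equalled the gap on mm9 in 3 and was smaller in 5. The series table deposited by the authors holds intensity values with a median of 33.1 in both columns, and 98% of ranked values were equal between them. It was used only as an alternative, and how it was normalized is not stated in any header or label.

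Processed signals were averaged over spots of a probe without control and outlier spots, put on a log2 scale and centred on each array's 75th percentile. Probes were named through RefSeq on GRCm38.p6 (26408 by accession, 3854 by symbol, 734 by synonym, 8428 unnamed of 39424). Each gene is represented by the brightest of its probes that passed the scanner's test against background on either array, and a value that failed the test was raised to the array's lowest signal that passed. Members, lists and the rule for named genes were chosen with earlier results of these data known. The values of 1 core subunit are not reported here by name, though it is counted in the summaries. The named-gene rule took G0s2, core subunits, all assembly factors, the 6 highest and 6 lowest, genes with 2 probes, and the extremes of other lists. The alternatives are given in the closing section. The calculation was tested on simulated data. Python 3.11.15, numpy 2.4.6, pandas 2.3.3, scipy 1.17.1, statsmodels 0.14.6, matplotlib 3.10.9, R 4.3.3 and limma 3.58.1 were used. The number of arrays limits the precision.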

Additional observations from a re-analysis of the deposited data

How the results depend on the processing

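Over 12 settings other than spike-in centring, namely normexp (offset 50), median centring, quantile and loess normalization, a stricter and no background filter, averaged probes, the probe nearest the transcript end, the authors' series table, removal of the position trend, and 2 subtractions of bin medians chosen after seeing the data, the subunit median ran from -0.31 to -0.15, with 28 to 34 of 36 subunits below 0. The assembly factor median ran from -0.051 to 0.12, and the difference of the medians from -0.30 to -0.21. With members taken by current symbol that difference was -0.16. Spike-in centring gave 1.12 for subunits and 1.38 for assembly factors, with 31 Nduf genes at least 2-fold higher, where every member shifted by 1.43 and the median of all genes by 1.40. Without a background filter the median of all genes shifted to -0.15 and the subunits stood at -0.15 relative to it; with normexp they stood at -0.14. Counts of 0 at 2-fold became 1 higher and 2 lower at 1.5-fold, and 1 higher and 11 lower at more than 2 scanner errors. Of 10 settings with a value per gene, spike-in centring aside, 29 subunits were below 0 in all, 2 (Ndufs1 and Ndufab1) were above 0 in all and 5 near 0 changed sign. Of 430 values per gene, 6 moved by at least the scanner error: G0s2 to -2.36, Ndufs5 to -0.26 and Ndufc2 to -0.085 under normexp, Ndufaf4 to 0.20 with probes averaged, and Ndufaf4 to 0.47 and Ndufb5 to -0.62 with the probe nearest the transcript end; the cause was not tested. All Nduf probes were well above background on both arrays, so the 2 background filters could not move a member. Averaging or choosing probes could move only the 8 members with 2 probes. The count of values that moved is therefore small in part by construction. No paired analysis was possible because each group has 1 array.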
